A study of Mus musculus with 16 samples.

Results

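Hox genes encode homeodomain transcription factors. Every gene whose platform symbol was Hox, a cluster letter from a to d and a number was taken, which gave 31 of the 12393 genes with a probe set of their own, each read by its probe set of highest mean over the 16 arrays. Affymetrix arrays were run on RNA of 3583T3 and 3151T4, 2 lines of mouse small cell lung cancer, each grown in culture from 1 dissociated tumour. Each line was measured without a vector (control), with a retroviral MSCV vector carrying FLAG-tagged Nfib, with an MSCV vector carrying Mycl1 (L-myc, current symbol Mycl), or with both vectors. The 8 groups of line and vector held 2 arrays each. Cells with the Nfib vector also carried a neomycin resistance gene and were selected with G418, and those with the Mycl1 vector a puromycin resistance gene with puromycin selection, whereas control cells carried neither, so the transgene and its selection cannot be told apart. The labels do not say whether replicates came from separate cultures, so p-values rest on the spread between the arrays of a group, and this may be technical. In the fits over both lines and between lines, the spread also holds differences between the lines in their response to the vectors. Values below are log2 GCRMA signals, changes are differences of log2 signal with their standard error (SE), and genes with an adjusted p under 0.05 in limma (Benjamini-Hochberg, over 8774 tested genes) were called.

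The mouse Hox genes lie in the clusters HoxA, HoxB, HoxC and HoxD, and genes at the same place in different clusters form paralog groups. In the embryo they are switched on in the order in which they lie, with the low-numbered genes first and nearest the head, and Polycomb and Trithorax complexes then keep them silent or active. Hox proteins bind DNA with cofactors of the TALE class, Pbx and Meis. In the lung, genes from the front and middle of HoxA and HoxB are those mainly expressed, and Hoxa5 is required for normal airway development.

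Promoter windows are shown for Hoxa5 and Hoxb4, which rose with Nfib and with both vectors in the fit over both lines, and for the inner of the 2 listed starts of Hoxa10, whose signal differed most between the lines. Each is the 250 bases before the start site on the gene's strand, 5′ to 3′, from RefSeq (GRCm38.p6): Hoxa5 at chr6:52204588-52204837 (minus strand), Hoxb4 at chr11:96318017-96318266 (plus strand) and Hoxa10 at chr6:52234940-52235189 (minus strand). Capitals mark TTGGC on either strand, the half-site of nuclear factor I proteins, and CACGTG, the E-box bound by MYC and MAX.
Hoxa5: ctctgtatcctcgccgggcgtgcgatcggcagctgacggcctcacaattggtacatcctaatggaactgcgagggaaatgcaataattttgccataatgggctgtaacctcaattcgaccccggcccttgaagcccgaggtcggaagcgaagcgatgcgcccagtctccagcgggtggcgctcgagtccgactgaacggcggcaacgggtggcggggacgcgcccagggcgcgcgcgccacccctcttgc
Hoxb4: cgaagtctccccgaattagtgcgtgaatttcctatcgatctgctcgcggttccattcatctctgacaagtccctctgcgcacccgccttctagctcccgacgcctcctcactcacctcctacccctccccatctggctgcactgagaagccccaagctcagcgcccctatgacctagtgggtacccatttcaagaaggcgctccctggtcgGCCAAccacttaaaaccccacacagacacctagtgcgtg
Hoxa10: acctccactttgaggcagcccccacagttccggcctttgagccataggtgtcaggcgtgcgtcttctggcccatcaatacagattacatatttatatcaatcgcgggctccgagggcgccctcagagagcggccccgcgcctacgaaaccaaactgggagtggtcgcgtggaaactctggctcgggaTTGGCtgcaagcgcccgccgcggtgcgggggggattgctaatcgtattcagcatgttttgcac
The Hoxa5 window held neither motif, and the Hoxb4 and Hoxa10 windows held 1 TTGGC each. A promoter entry was found for 18 of the 31 Hox genes, with 20 windows, and the other Hox genes are named only. TTGGC lay in 12 of the 20 windows (60%), against 41.5% of 32851 RefSeq promoter windows of the same length. It lay in 2 of the 9 windows of Hox genes above the detection threshold used below. CACGTG lay in 4 of the 20 windows, in 0 of those 9 and in 6.02% of all windows. The full palindrome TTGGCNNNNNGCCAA lay in 0 of 20 Hox windows and in 0.0365% of all. TGATNNAT, a form of the joint Pbx and Hox motif, lay in 3 of 20 Hox windows, in 0 of those 9 and in 7.68% of all, searched on both strands like the rest. The median GC content was 59.2% in Hox windows, which ranged from 44.4% to 80% (the highest in Hoxa13), and 52.4% in all windows, and the median number of CG dinucleotides was 13 and 6. A match to letters describes the window and shows no binding.

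The labels were checked first. The Mycl probe set that reads the transgene stood at 9.08 to 11.05 on 7 arrays labelled with the Mycl1 vector and at 2.12 to 2.55 on 7 labelled without it. The other 2 arrays went against their labels: 3583T3 Nfib replicate 2 read 10.22 and 3583T3 Nfib+Mycl1 replicate 2 read 2.67. Both were kept as labelled, and results that rest on them are also given without them, where the lone array left in a group is assumed to vary like the other groups. One Mycn probe set stood at 2.03 to 2.56 on the control arrays and at 12.19 to 13.26 on the 12 arrays with any vector. Mycn's other probe sets showed no such rise, at 2.81 to 5.39 and 2.94 to 3.42 over all arrays, and the cause was not tested. The 4 Nfib probe sets do not check the Nfib transgene, as none was raised on the Nfib arrays of both lines. The brightest read 10.48 to 10.76 in control and 9.82 to 10.45 with the Nfib vector alone. Array medians lay between 6.26 and 6.43, replicates of a group correlated at 0.979 to 0.995, and 12 of the 16 arrays correlated best with their own group. Of 10 neuroendocrine markers on the array, Ncam1 and Uchl1 exceeded log2 4 on every array, Insm1 on 2 and Scg2 on 4, and Chga, Chgb, Syp, Neurod1, Grp and Scg3 on none (0).

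Signal above log2 4 on 2 or more arrays, the filter for testing, was found for 14 of the 31 Hox genes, and HoxA and HoxB held 12 of them. HoxA had 6 of 9 (Hoxa3, Hoxa4, Hoxa5, Hoxa7, Hoxa9 and Hoxa10) and HoxB 6 of 9 (Hoxb2, Hoxb3, Hoxb4, Hoxb5, Hoxb6 and Hoxb9). HoxC had 1 of 6, Hoxc4, and HoxD 1 of 7, Hoxd9. By position, 3 of 6 genes of paralog groups 1 to 3 passed, 7 of 12 of groups 4 to 8 and 4 of 13 of groups 9 to 13, and past group 9 Hoxa10 alone passed, 1 of 9. The other 17 genes lay between 1.36 and 6.12: Hoxa2, Hoxa11, Hoxa13, Hoxb1, Hoxb7, Hoxb13, Hoxc5, Hoxc6, Hoxc8, Hoxc9, Hoxc13, Hoxd1, Hoxd8, Hoxd10, Hoxd11, Hoxd12 and Hoxd13. Just inside the filter stood Hoxb2 and Hoxd9, above 4 on 2 arrays each, and just outside it Hoxa2 (highest value 4.33) and Hoxc8 (highest value 6.12), above 4 on 1 array each. A gene that passed only on the arrays where it was high had to differ between arrays, so the counts and median changes below describe the genes and support nothing on their own. Hoxa9, Hoxb2, Hoxb3, Hoxb6 and Hoxc4 exceeded 4 only on arrays with a vector, and Hoxd9 only on 3583T3 control replicate 2 and Mycl1 replicate 2. Calls of these genes against control, in every fit below, support nothing on their own. Probe sets shared by Hoxd3 and Hoxd4 or by Hoxb7 and Hoxb8 stayed between 1.76 and 3.53.

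**Figure D1:**
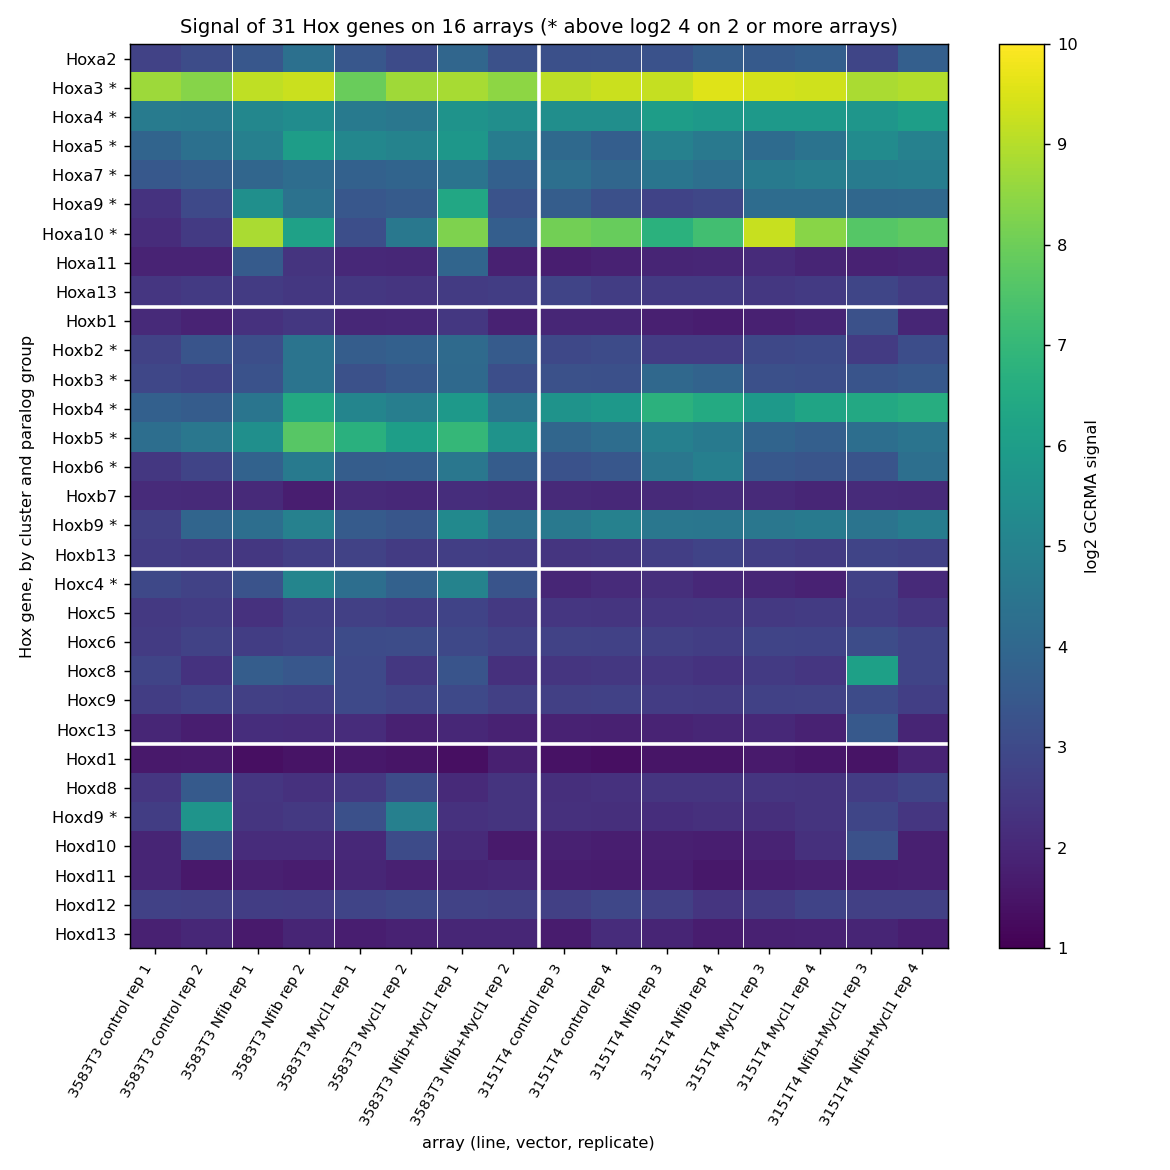
Log2 GCRMA signal of the 31 Hox genes, ordered by cluster and paralog group, on the 16 arrays, with an asterisk on the 14 genes above log2 4 on 2 or more arrays and thick white lines between clusters and between lines. Signal is concentrated in the HoxA and HoxB rows, Hoxa10 is bright on all 8 arrays of 3151T4 (6.76 to 9.23), and the HoxC and HoxD rows are dark apart from Hoxc4 in 3583T3 and single arrays for Hoxc8 and Hoxd9.

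Hoxa3, which patterns the thymus and parathyroid, and Hoxa4, which patterns the neck skeleton, were above log2 4 on all 16 arrays. Hoxa3 (probe set 1427433_s_at) ranged from 7.94 to 9.55 and Hoxa4 (1427354_at) from 4.58 to 6.05. Hoxa5 (1448926_at) and Hoxb4 (1460379_at), the latter known for expanding blood stem cells, exceeded 4 on 14 arrays each, Hoxb5 (1418415_at) on 13, and Hoxa10 (1431475_a_at) and Hoxb9 (1452317_at) on 12. Hoxa7 (1449499_at) exceeded 4 on 9 arrays, Hoxa9 (1455626_at) on 6, Hoxb6 (1451660_a_at) on 5, and Hoxb3 (1427605_at) and Hoxc4 (1422870_at) on 3. Probe sets of a gene did not always behave alike. The second probe sets of Hoxa4 (2.74 to 3.61), Hoxa9 (2.63 to 3.27) and Hoxb4 (2.24 to 3.12) stayed under 4 on every array, so these genes rest on 1 probe set, while the second of Hoxa3 read 5.09 to 6.36.

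Nfib is a nuclear factor I transcription factor, and the first comparison was of its vector with control over both lines. With the Nfib vector 4 of the 14 tested Hox genes rose against control and none (0) fell: Hoxa5, Hoxb3, Hoxb4 and Hoxb6, all from the front and middle of their clusters, against 5.29% of all tested genes that rose. Hoxb6, which patterns the trunk skeleton, read 2.47 and 2.84 in 3583T3 control and 3.25 and 3.44 in 3151T4 control. With Nfib it read 3.82 and 4.72 in 3583T3 and 4.58 and 4.88 in 3151T4. Every Nfib array lay above every control array, a change of 1.50 ± 0.30 (SE, n = 4 against 4, adjusted p = 0.0047, 2.84-fold). Hoxb6 exceeded log2 4 on 5 arrays, all labelled with the Nfib vector, alone or with Mycl1. It thus passed the filter only through groups where it was high, so its calls against control, here and below, support nothing on their own. Hoxa5 read 3.88, 4.33, 4.06 and 3.69 on the control arrays (3583T3 first) and 4.94, 5.99, 4.96 and 4.64 with Nfib, again without overlap, a change of 1.14 ± 0.27 (adjusted p = 0.0133).

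Hoxb4 read 3.76 and 3.63 in 3583T3 control and 4.50 and 6.45 with Nfib, and in 3151T4 it read 5.63 and 5.81 in control and 6.77 and 6.51 with Nfib. The groups did not overlap within either line, but control of 3151T4 lay above 1 Nfib array of 3583T3, and the change was 1.35 ± 0.37 (adjusted p = 0.0285). Hoxb3, a hindbrain patterning gene, read 2.93, 2.80, 3.24 and 3.21 in control and 3.26, 4.47, 4.05 and 3.86 with Nfib. Its change of 0.87 ± 0.26 had an adjusted p of 0.043, and its control values lay under the filter's threshold. The 3 arrays on which Hoxb3 exceeded that threshold all carried the Nfib label, so the same limit holds for it. Hoxb5 followed at 1.43 ± 0.47 (adjusted p = 0.0685) and Hoxa10 at 2.10 ± 1.15 (adjusted p = 0.297), neither of which passed. The median change of the 14 was 0.79, against 0.03 over all tested genes. Without the 2 arrays that went against their labels, 3 rose (5.22% of all genes): Hoxa5 by 0.93, Hoxb4 by 0.97 and Hoxb6 by 1.40, while Hoxb3 at 0.67 had an adjusted p of 0.114. The count of 4 also depended on single arrays: it was 1 without 3583T3 control replicate 1, and 2 without 3583T3 control replicate 2, without 3583T3 Nfib replicate 2 or without 3151T4 Nfib replicate 3. Hoxb6 kept its call without any 1 array, with the limit that it was tested only for its signal on arrays with the Nfib label. Hoxa5 lost its call only without 3583T3 control replicate 1, and Hoxb3 lost it in 12 of 16 such fits.

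With the Mycl1 vector none (0) of the 14 Hox genes passed in limma over both lines, against 11.3% of all tested genes, and 3 had an unadjusted p under 0.05. These were Hoxa5 (0.69 ± 0.27, adjusted p = 0.098), Hoxa7 (0.45 ± 0.19, adjusted p = 0.125) and Hoxb4 (0.81 ± 0.37, adjusted p = 0.146). Hoxa5 read 5.16 and 5.01 in 3583T3 and 4.14 and 4.41 in 3151T4, above the control arrays of the same line on all 4 arrays. Without the 2 doubted arrays, neither of which carries the Mycl1 label alone, the changes of these 3 genes were the same with smaller standard errors, and 2 rose, Hoxa5 and Hoxb4 (10.4% of all genes). The median change of the 14 was 0.49, against 0.03 over all genes.

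With both vectors 5 of the 14 Hox genes rose against control and none (0) fell: Hoxa4, Hoxa5, Hoxa7, Hoxb4 and Hoxb6, against 16.3% of all tested genes that rose. This comparison uses the same control arrays as the previous ones. Hoxa5 read 5.78 and 4.79 in 3583T3 and 5.34 and 4.97 in 3151T4, above every control array, a change of 1.23 ± 0.27 (adjusted p = 0.00454). Hoxa4 read 5.62, 5.43, 5.74 and 6.05 with both vectors and 4.74, 4.66, 5.46 and 5.45 in control, a change of 0.64 ± 0.18 (adjusted p = 0.0151). Hoxa7, which patterns the trunk skeleton, changed by 0.60 ± 0.19 (adjusted p = 0.0289). Each of the 2 was higher than its own line's controls on 4 of 4 arrays. Hoxb4 read 5.88 and 4.45 in 3583T3 and 6.42 and 6.62 in 3151T4 and was higher on 4 of 4 arrays, by 1.14 ± 0.37 (adjusted p = 0.0289). Hoxb6 read 4.58, 3.63, 3.34 and 4.29, higher on 3 of 4 arrays, by 0.96 ± 0.30 (adjusted p = 0.0247). The median change was 0.74, against 0.03 over all genes.

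Without the 2 doubted arrays 8 Hox genes rose with both vectors (17.7% of all genes), Hoxa9 by 1.87, Hoxb5 by 1.22 and Hoxc4 by 1.10 in addition. Hoxa9 and Hoxc4, like Hoxb6, exceeded log2 4 only on arrays with a vector, so their calls support nothing on their own. The count of 5 fell to 1 without 3583T3 Nfib+Mycl1 replicate 1, to 2 without 3583T3 control replicate 1 or 3151T4 Nfib+Mycl1 replicate 4, and to 3 without 3583T3 control replicate 2 or 3151T4 Nfib+Mycl1 replicate 3. Hoxa5 kept its call in each of these fits. Adding the Nfib vector to Mycl1 cells gave 0 of 14 called (1 at an unadjusted p under 0.05, Hoxa4 at 0.48 ± 0.18), against 3.77% of all genes, and adding the Mycl1 vector to Nfib cells gave 0 (1 at an unadjusted p under 0.05, Hoxa3 at -0.51 ± 0.20, adjusted p = 0.095), against 16.9%. Without 3583T3 Mycl1 replicate 1, 1 was called in the latter. Both counts were also 0 without the doubted arrays, where 3.25% and 27.6% of all genes were called.

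**Figure D2:**
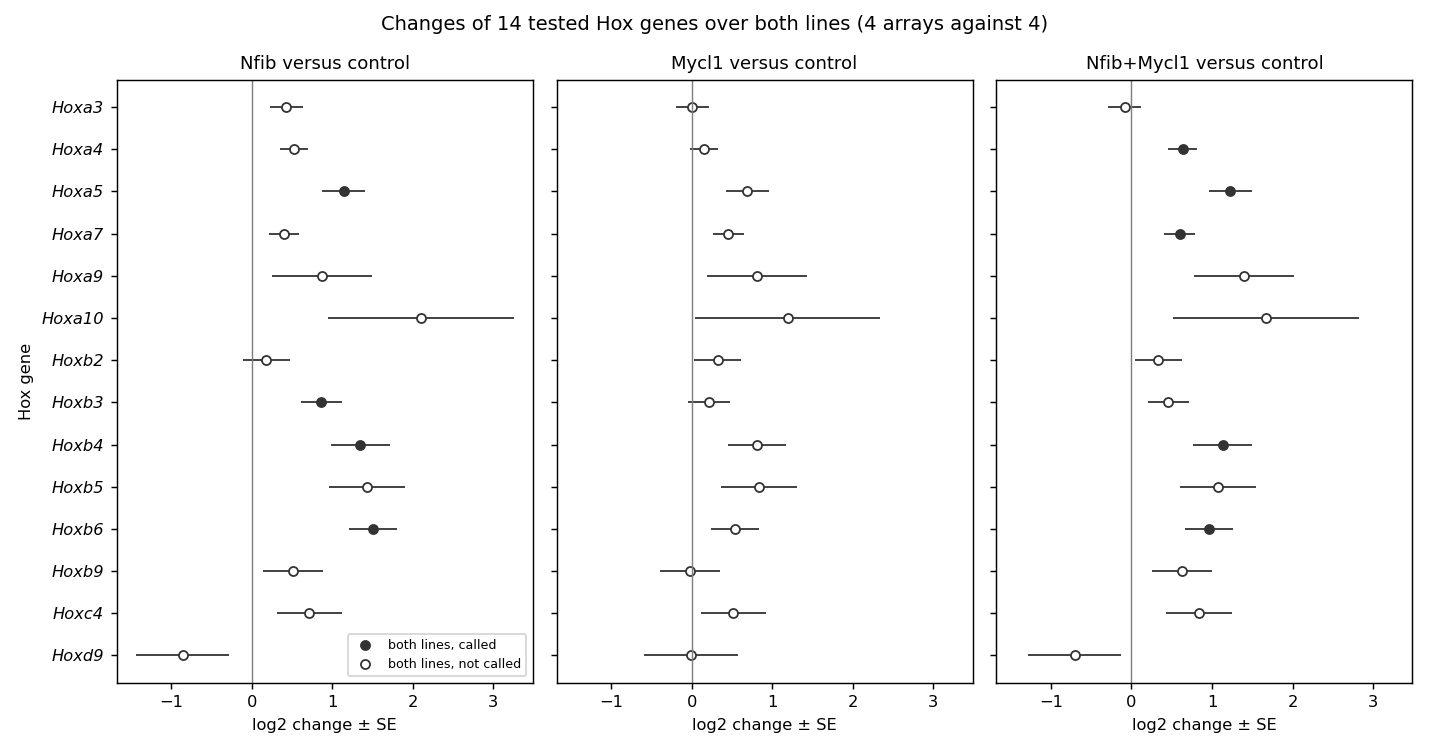
Log2 change ± SE of the 14 tested Hox genes against control over both lines (4 arrays against 4) for each vector; filled points were called at an adjusted p under 0.05 in limma. Hoxa5 stands at 1.14 and 1.23 with Nfib and with both vectors with short bars, whereas Hoxa10 has the longest bars (SE 1.15).

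Within 3583T3 the Nfib vector raised 6 of the 14 Hox genes and lowered none (0), against 5.13% of all genes that rose. The largest change was in Hoxa10, which patterns the uterus and is active in blood progenitors. It read 2.14 and 2.51 in 3583T3 control, near the floor of the array signal, and 8.86 and 6.17 with Nfib, a change of 5.19 ± 1.08 (SE, n = 2 against 2, adjusted p = 0.00608). Its HoxA neighbour Hoxa9, a leukaemia oncogene, read 2.31 and 2.97 in control and 5.49 and 4.40 with Nfib, a change of 2.30 ± 0.67 (adjusted p = 0.0422). In both genes the array that went against its label was the lower of the Nfib pair. The other 4 were Hoxb5 (2.14 ± 0.54), Hoxb4 (1.78 ± 0.50), Hoxb6 (1.62 ± 0.37) and Hoxa5 (1.36 ± 0.36). In these 4 the array that went against its label was the higher of the pair: Hoxb5, which takes part in airway branching, read 4.26 and 4.58 in control and 5.47 and 7.66 with Nfib.

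With the doubted arrays left out, 4 genes rose with Nfib in 3583T3 (3.8% of all genes): Hoxa10 by 6.53, Hoxa9 by 2.85, Hoxb6 by 1.16 and Hoxb5 by 1.05, the last from 2.14. Hoxb4 dropped from 1.78 to 0.80 (adjusted p = 0.0806) and Hoxa5 from 1.36 to 0.83 (adjusted p = 0.114), and neither was called. Without control replicate 1 of this line the 6 genes lost their calls, and Hoxd9 was called, lower with Nfib. Hoxd9 exceeded log2 4 only on 3583T3 control replicate 2 (5.64) and Mycl1 replicate 2 (4.91). It thus passed the filter only through arrays without Nfib. As control replicate 2 was the only control array left in that line, this call supports nothing on its own. Without control replicate 2 the calls were Hoxa10, Hoxb6 and, in addition, Hoxb9, and without Nfib replicate 2 they were Hoxa10 and Hoxa9. Hoxa10 lost its call without control replicate 1 alone (adjusted p = 0.0519), and Hoxa9 lost it in 13 of the 16 fits without 1 array. Hoxa9, Hoxb6 and Hoxc4 exceeded log2 4 only on arrays with a vector, so calls of them against control support nothing on their own. With Mycl1 in 3583T3 none (0) passed in limma, against 2.92% of all genes, and 5 had an unadjusted p under 0.05. Hoxb5 was nearest at 1.96 ± 0.54 (adjusted p = 0.0684), reading 6.73 and 6.04. Leaving out the doubted arrays, 7 rose there (5.64% of all genes): Hoxa5, Hoxa9, Hoxa10, Hoxb4, Hoxb5, Hoxb6 and Hoxc4. Leaving out single arrays, the count of 0 became 2 without either 3583T3 Nfib array and 1 without either 3583T3 Nfib+Mycl1 array.

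With both vectors in 3583T3, 7 Hox genes rose and none (0) fell, against 7.11% of all genes that rose. Hoxa10 read 8.25 and 3.68 (3.63 ± 1.08) and Hoxa9 6.39 and 3.30 (2.21 ± 0.67), so in each gene 1 array carried most of the change, and the lower array was the one that went against its label. Hoxb5 changed by 1.89 ± 0.54, Hoxb9 by 1.46 ± 0.38, Hoxb6 by 1.45 ± 0.37, Hoxa5 by 1.18 ± 0.36 and Hoxa4 by 0.83 ± 0.19. Hoxb9, which patterns the rib cage, read 2.70 and 3.93 in control and 5.29 and 4.27 with both vectors. Without the doubted arrays 12 of the 14 rose (10.6% of all genes), Hoxa3 and Hoxd9 being the exceptions, with Hoxa10 at 5.92 and Hoxa9 at 3.75, from 1 array against 2. The count of 7 was 0 without Nfib+Mycl1 replicate 1 and 11 without Nfib+Mycl1 replicate 2. Without control replicate 1 of this line the 7 genes lost their calls, and Hoxd9 was called, lower with both vectors, with the same limits as given above with Nfib. Hoxb6 and Hoxb9 were the 2 called without control replicate 2. Without any 1 of the 8 arrays of 3151T4, which share in the estimate of the spread, 4 were called (Hoxa4, Hoxb5, Hoxb6 and Hoxb9). Hoxa10, Hoxa9 and Hoxa5 each lost the call in 11 of the 16 fits without 1 array. Hoxa10 and Hoxa9 also lost it with no filter, with no trend and with the replicate number as a block. Hoxa9, Hoxb2, Hoxb3, Hoxb6 and Hoxc4 exceeded log2 4 only on arrays with a vector, so their calls against control support nothing on their own.

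The 4 arrays of 3583T3 with the Nfib label fell into different pairs for different genes. Hoxc4 read 5.10 on Nfib replicate 2 and 5.01 on Nfib+Mycl1 replicate 1, the 2 of these arrays with Mycl signal, and 3.31 and 3.32 on the others. Hoxb4 (6.45 and 5.88, against 4.50 and 4.45), Hoxb5 (7.66 and 7.0, against 5.47 and 5.64), Hoxa5 (5.99 and 5.78, against 4.94 and 4.79), Hoxb6 (4.72 and 4.58, against 3.82 and 3.63), Hoxb3 (4.47 and 4.07, against 3.26 and 3.15) and Hoxb2 (4.45 and 4.11, against 3.18 and 3.59) were ordered alike. Hoxa10, Hoxa9 and Hoxa11, neighbours at the end of HoxA, were instead higher on both replicate 1 arrays than on both replicate 2 arrays. Hoxa11, which shapes limb and kidney, read 3.57 and 3.95 on the replicate 1 arrays of Nfib and of Nfib+Mycl1 and 1.74 to 2.34 on the other 14 arrays. This order was noticed in the values and was not tested.

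**Figure D3:**
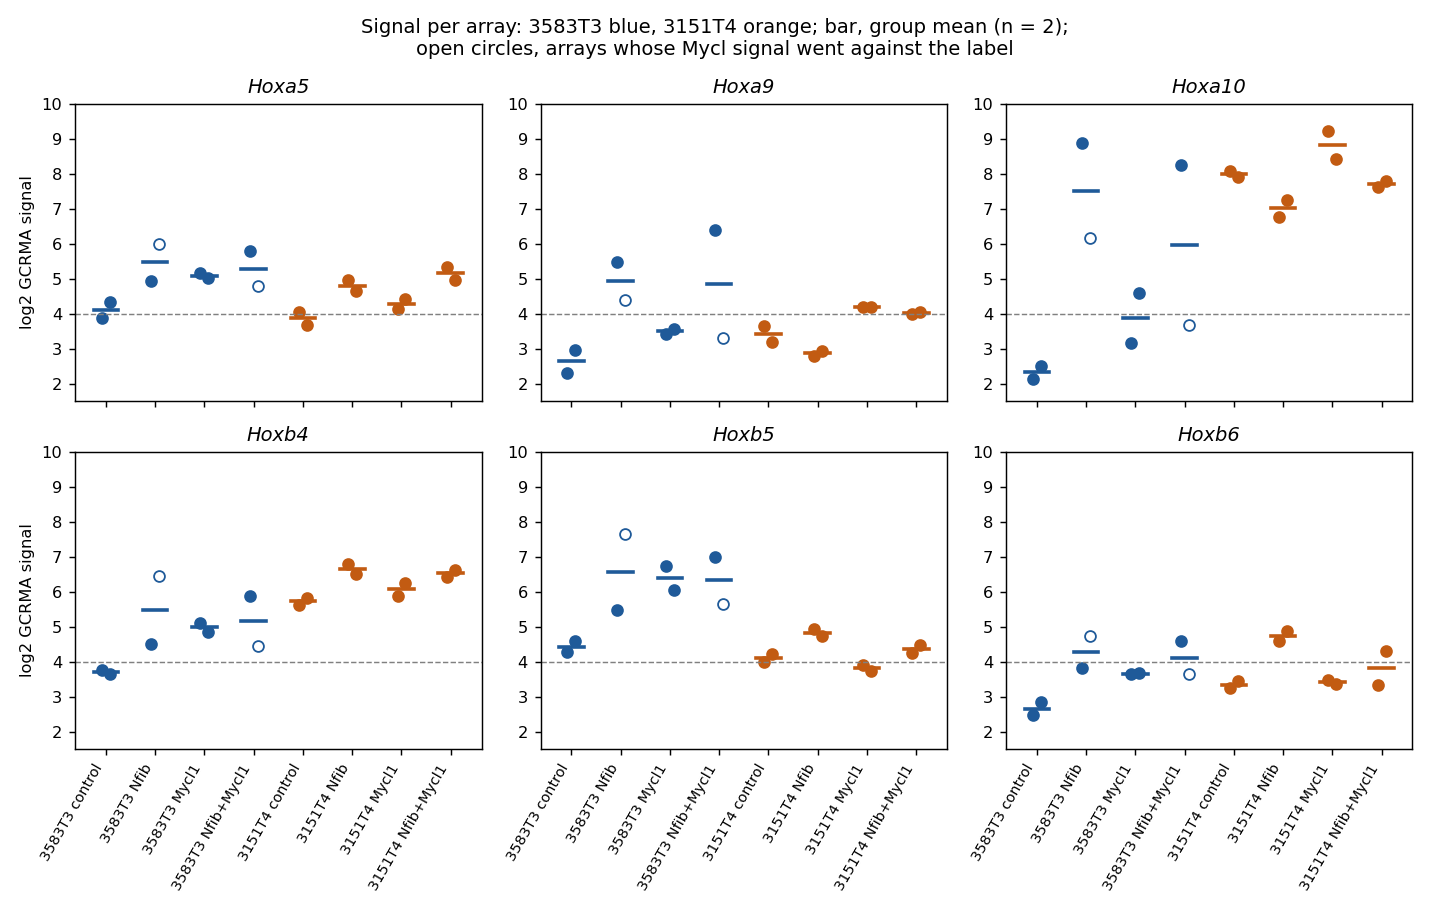
Log2 GCRMA signal of 6 Hox genes on each array by line and vector, with the group mean as a bar (n = 2), a dashed line at log2 4 and open circles on the arrays whose Mycl signal went against the label. In 3583T3 the open circle of the Nfib group is the lower array for Hoxa9 and Hoxa10 and the higher one for Hoxa5, Hoxb4, Hoxb5 and Hoxb6, and Hoxa10 is high in every group of 3151T4.

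Within 3151T4 fewer Hox genes passed. With Nfib 1 rose, Hoxb6 by 1.39 ± 0.37 (adjusted p = 0.0198), against 7.9% of all genes that rose, and it lost its call without any 1 of the 4 arrays compared (adjusted p up to 0.149). Hoxa10 read 8.07 and 7.90 in 3151T4 control and 6.76 and 7.26 with Nfib, a change of -0.98 ± 1.08 that did not pass. With Mycl1 none (0) passed in limma, against 16.2% of all genes, and 1 had an unadjusted p under 0.05, Hoxa7 at 0.63 ± 0.24. With both vectors 1 rose, Hoxa5 by 1.28 ± 0.36 (adjusted p = 0.0178), against 14.6% of all genes, and the count was 0 without 3151T4 control replicate 4 or without 3151T4 Nfib+Mycl1 replicate 3. Leaving out the 2 doubted arrays, which belong to the other line, changed no level here but narrowed the shared spread. Then 5 rose with Nfib (Hoxa5, Hoxb3, Hoxb4, Hoxb5 and Hoxb6; 10.6% of all genes), 2 with Mycl1 (Hoxa7 and Hoxa9; 10.9%) and 3 with both vectors (Hoxa5, Hoxa7 and Hoxb4; 16.9%).

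The difference between the lines in the response to Nfib was tested directly, and 1 of the 14 Hox genes passed, Hoxa10, against 6.82% of all genes. Its response was 5.19 in 3583T3 and -0.98 in 3151T4, a difference of 6.16 ± 1.52 (adjusted p = 0.0246). In the fit without the doubted arrays 2 passed (7.59% of all genes), Hoxa10 at 7.51 and Hoxa9 at 3.41. Hoxa10 lost this call in 7 of the 16 fits without 1 array (adjusted p up to 0.0957), namely without any 1 of the control or Nfib arrays of 3151T4, either control array of 3583T3 or 3583T3 Nfib replicate 1, where its difference was 4.82. Without 3583T3 Nfib replicate 1 the genes called were Hoxb2, Hoxb4, Hoxb5 and Hoxc4. Without control replicate 1 or 2 of that line Hoxd9 or Hoxb9 was called. Without either 3583T3 Nfib+Mycl1 array Hoxa9 was called beside Hoxa10. The calls of Hoxa9, Hoxb2, Hoxc4 and Hoxd9 carry the filter limit given above. For Mycl1 0 passed (1 at an unadjusted p under 0.05, Hoxb5 at 2.24 ± 0.77), against 2.11% of all genes, and 2 without the doubted arrays, Hoxb5 and Hoxc4 (4.26%). For both vectors 0 passed (3 at an unadjusted p under 0.05), against 5.95%. Without the doubted arrays 8 passed there (8.71%), led by Hoxa10 at 6.21 and Hoxa9 at 3.16, all with the larger response in 3583T3. Leaving out single arrays, the Mycl1 count was 1 without either 3583T3 Nfib array, and the count for both vectors was 1 without either 3583T3 control array and 3 without 3583T3 Nfib+Mycl1 replicate 2.

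**Figure D4:**
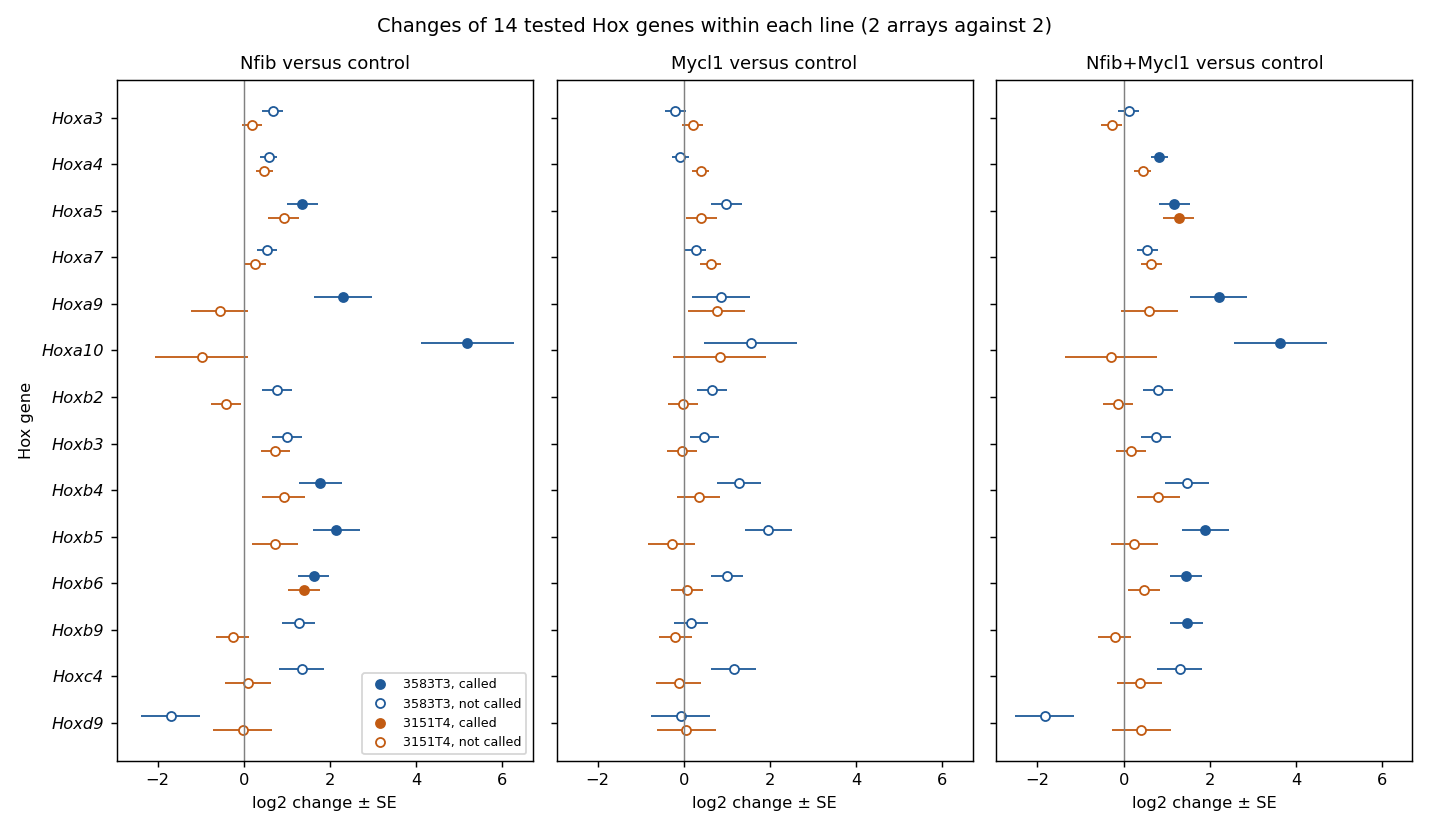
Log2 change ± SE of the 14 tested Hox genes against control within 3583T3 (blue) and within 3151T4 (orange), 2 arrays against 2, for each vector; filled points were called at an adjusted p under 0.05 in limma. With Nfib, Hoxa10 stands at 5.19 in 3583T3 and at -0.98 in 3151T4, while Hoxb6 stands at 1.62 and 1.39.

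Between the lines over all vectors 9 of the 14 Hox genes differed (64.3%), close to the 58.6% of all tested genes that did. Hoxa10 was the widest apart: on the 8 arrays of 3583T3 the lowest, median and highest values were 2.14, 4.14 and 8.86, and on those of 3151T4 6.76, 7.84 and 9.23, so the groups overlapped. The difference, 3583T3 minus 3151T4, was -2.96 ± 0.81 (SE, n = 8 against 8, adjusted p = 0.00566). Hoxc4, which patterns the upper trunk, ranged from 2.77 to 5.10 in 3583T3 and from 1.85 to 2.75 in 3151T4, without overlap, and was higher in 3583T3 by 1.69 ± 0.29 (adjusted p = 0.000124). Hoxb5 (1.65 ± 0.33), Hoxb2 (0.75 ± 0.21) and Hoxa5 (0.46 ± 0.19) were also higher in 3583T3. Hoxb4 (-1.41 ± 0.26), Hoxa4 (-0.75 ± 0.13), Hoxa7 (-0.61 ± 0.14) and Hoxa3 (-0.54 ± 0.14) were lower there. Hoxc4 exceeded log2 4 on 3 arrays and Hoxb2 on 2, all of 3583T3. Both passed the filter only through the line where they were high, so their calls support no difference on their own.

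On the control arrays alone the difference in Hoxa10 was -5.66 and in Hoxb4 -2.02, and that in Hoxc4 was smaller at 0.83 (adjusted p = 0.000918), whereas Hoxb5 (0.32, adjusted p = 0.18), Hoxa5 (0.23, adjusted p = 0.378) and Hoxb2 (0.05, adjusted p = 0.865) were not called. On these arrays Hoxa9, Hoxb6, Hoxb9 and Hoxd9, not called over all vectors, were called. Hoxd9 read 2.63 and 5.64 in 3583T3 control and 2.23 and 2.22 in 3151T4 control, so its call rests mostly on 1 array. No share of all genes is given for this fit, so these calls are not read as a trait of the Hox genes. Hoxa5 also lost its call in 11 of the 16 fits without 1 array (adjusted p over its alternatives 0.0102 to 0.378). Without the doubted arrays 10 genes differed (57.9% of all genes), with Hoxb9 in addition at -0.72.

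Some Hox genes stood apart on single arrays, and these were picked after their values were seen. Hoxd9, active in hindlimb patterning, read 5.64 on 3583T3 control replicate 2 and 4.91 on 3583T3 Mycl1 replicate 2, and 2.16 to 3.21 on the other 14 arrays. Its HoxD neighbours were high on the same 2 arrays: Hoxd8 read 3.54 and 3.06, against 2.06 to 2.83 elsewhere, and Hoxd10 3.34 and 3.05. Hoxc8, which specifies motor neurons of the forelimb, read 6.12 on 3151T4 Nfib+Mycl1 replicate 3 and 2.23 to 3.65 on the other 15. That array was also the highest for Hoxc13 (3.51, others 1.77 to 2.19) and Hoxb1 (3.22, others 1.70 to 2.46) and stood with the 2 others for Hoxd10 (3.23). With no filter on dim genes, 3 further calls appeared among the 17 untested genes: Hoxd11 between lines (0.13), and Hoxb13 (0.36) and Hoxc8 (2.05, adjusted p = 0.0498) with both vectors in 3151T4, the last resting on that 1 array.

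Genes that work with or on the Hox clusters were set beside them. Of all tested genes, 5.29% rose and 4.95% fell with Nfib, 6.63% rose and 4.68% fell with Mycl1, and 16.3% rose and 14.7% fell with both vectors. Of 9 TALE cofactors 7 were tested: Meis2 rose with Nfib (1.09 ± 0.33, adjusted p = 0.0475, not called without the doubted arrays at 0.12) and with both vectors (1.00 ± 0.33, adjusted p = 0.0329), where Pbx4 fell by 0.58. None (0) of the 7 passed with Mycl1 (2 at an unadjusted p under 0.05). Between the lines 3 were lower in 3583T3, against 30.9% of all genes: Meis2 (-1.81), Pbx3 (-1.04) and Meis3 (-0.51). Of 19 activators of Hox transcription, Trithorax proteins, their partners and retinoic acid receptors, 12 were tested. None (0) passed with Nfib (2 at an unadjusted p under 0.05). With Mycl1 1 rose, Wdr5 (0.74 ± 0.16), a core subunit of histone H3 methyltransferase complexes. With both vectors 3 rose and 2 fell of 12, against 16.3% and 14.7% of all genes, among them the methyltransferase gene Kmt2a (0.89 ± 0.19), Wdr5 (0.57 ± 0.16) and Mllt3, which fell by 1.0.

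Of 23 Polycomb genes 20 were tested, and 1 rose in each comparison with control and none (0) fell: Ezh1, a methyltransferase subunit, with Nfib (0.53 ± 0.16), Pcgf6 with Mycl1 (1.17 ± 0.30) and Phf19 with both (0.59 ± 0.21). A count of 1 in 20 is near the share of all genes that rose with Nfib or Mycl1 and below that with both vectors. With Nfib 0 passed without the doubted arrays, and with both vectors Phf19 was then not called and another gene of the list was. The ParaHox genes Gsx1, Gsx2 and Pdx1 and the cluster neighbours Evx1 and Evx2 stayed between 1.72 and 3.47 and were not tested. Of 32 other genes flanking the clusters 21 were tested, and 1 fell with Nfib (Chn1 at -0.69 ± 0.19, not called without the doubted arrays), 0 passed with Mycl1 (4 at an unadjusted p under 0.05), and 2 rose and 3 fell with both vectors (16.3% and 14.7% of all genes), among them Atp5g2 (0.93 ± 0.16), Atp5g1 (0.81 ± 0.16) and Chn1 (-0.74 ± 0.19). Their median changes were 0.03, 0.03 and -0.12, beside 0.79, 0.49 and 0.74 for the tested Hox genes. The Hox medians include Hoxa9, Hoxb2, Hoxb3, Hoxb6 and Hoxc4, which passed the filter only through arrays with a vector. The contrast with the flanking genes therefore supports nothing on its own.

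Markers of other cell types moved with the vectors, and in bulk RNA fewer cells of a type and less RNA per cell cannot be told apart. All 9 tested leukocyte markers fell with every vector over both lines (8 with Nfib without the doubted arrays), where 4.95%, 4.68% and 14.7% of all genes fell with Nfib, Mycl1 and both, with median changes of -4.68 with Nfib, -4.99 with Mycl1 and -5.27 with both. Their summed signal (log2) was 12.71 to 13.60 in 3583T3 control and 6.28 to 6.64 in the other groups of that line, and 11.58 to 11.60 in 3151T4 control, 8.82 to 8.89 with Nfib and 7.15 to 7.29 with Mycl1 or both. Tyrobp, Laptm5, C1qb and Fcer1g exceeded log2 4 on 4 arrays each and Ptprc on 2. Markers that passed the filter only where they were high had to differ, so the count of 9 supports nothing on its own. Itgam, Cd3e and Cd79a stayed under 4 on every array and were not tested. Of 12 fibroblast markers 8 rose with Nfib (6 without the doubted arrays) and none (0) fell, against 5.29% of all genes that rose. With Mycl1 5 fell, against 4.68%, and with both vectors 3 rose and 1 fell, against 16.3% and 14.7%. The lines differed with Mycl1. Within 3151T4 7 fell and 0 rose, where 16.2% of all genes were called in either direction. Within 3583T3 0 fell and 2 rose, where 2.92% were called. The summed signal of the fibroblast markers in 3583T3 was 13.46 to 13.72 in control, 14.43 to 14.58 with Nfib, 13.42 to 13.79 with Mycl1 and 14.46 to 14.54 with both. In 3151T4 it was 14.89 to 14.90, 15.54 to 15.67, 14.15 to 14.27 and 14.74 to 14.92 in the same order.

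Of 8 endothelial markers 3 were tested, Kdr, Emcn and Esam, and over both lines none (0) passed in the comparisons with control (0 at an unadjusted p under 0.05). Within 3583T3, where more Hox calls were made than within 3151T4, 3 of 3 fell with Nfib (4.96% of all genes fell) and 2 of 3 with both vectors (6.52%), with median changes of -3.81 and -3.79, and without the doubted arrays 1 fell in each. Their list's summed signal in 3583T3 was 11.35 and 11.37 in control and 10.48 and 10.56 with Mycl1. On the Nfib and Nfib+Mycl1 arrays it was 6.44 and 6.63 on Nfib replicate 2 and Nfib+Mycl1 replicate 1, the arrays with Mycl signal, and 9.61 and 9.29 on the others. In 3151T4 it stayed at 5.68 to 5.94. The untested members Pecam1, Cdh5, Tek, Vwf and Cldn5 stayed between 2.01 and 3.14 on all arrays, the controls included. The highest values were 11.31 for Esam, 8.47 for Emcn and 5.01 for Kdr, so the high sums follow mostly Esam. The falls thus describe these 3 genes and not the endothelial list as a whole. Of 12 lung epithelium markers 6 were tested. With Nfib 1 rose and 1 fell, against 5.29% and 4.95% of all genes. With both vectors 1 rose and 1 fell, against 16.3% and 14.7%. None (0) passed with Mycl1 (0 at an unadjusted p under 0.05), against 11.3%. Of 4 tested neuroendocrine markers 1, 1 and 2 fell with Nfib, Mycl1 and both vectors, where 4.95%, 4.68% and 14.7% of all genes fell. With so few genes tested, these counts only describe the markers. The part of these marker changes in the Hox changes was not tested.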

How the data were processed

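For each of 16 Affymetrix arrays, 100 ng of total RNA was amplified and biotinylated, per the labels' protocols. The authors' deposited values are log2 signals per probe set, and the submitters' processing notes name GCRMA 2.20.0 and R 2.11.0. The log2 scale is not stated and was inferred from the range of the values. No column was left out (0). Of 22690 probe sets, 64 were controls, and by the platform annotation 20380 carried 1 gene symbol, which named the genes, while 691 carried several and 1555 none. The array signal has a floor near log2 2, so changes of dim genes can be understated. The number of arrays limits the precision.

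The probe set of highest mean over the 16 arrays stood for each of 12393 genes, and 8774 genes above log2 4 on 2 or more arrays were tested. This left out 3 genes of which another probe set passed. Linear models were fitted over all 16 arrays with limma 3.58.1 in R 4.3.3 (lmFit, eBayes with a mean-variance trend), with vector and line as terms (11 residual degrees of freedom) for the comparisons over both lines, and with 8 group means (8 residual degrees of freedom) within lines and between their responses. The threshold for a call was an adjusted p of 0.05 (Benjamini-Hochberg, over all tested genes). The procedure was tested on simulated data. Groups were read from the sample titles and source names.

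The Hox genes and the lists (TALE cofactors, Hox activators, Polycomb, ParaHox and Evx, flanking genes, and markers of neuroendocrine, leukocyte, fibroblast, endothelial and lung epithelium cells) were chosen with earlier results of these data known. Every Hox gene is accounted for, those above the filter with values, and every called one is named; of the other lists up to 3 called genes of smallest p are named per comparison. Of 32 flanking genes, 31 lie among the 6 nearest protein-coding genes on either side of a cluster. Alternatives were no filter, a filter at log2 6, every probe set, centring on array medians, a second quantile normalization, no trend, array weights, the replicate number as a block, only the arrays compared, each array left out in turn, and, chosen after seeing the data, both doubted arrays left out.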

Additional observations from a re-analysis of the deposited data

Results flagged for a closer look

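The response of Hoxa10 to the Nfib vector differed between the lines by 6.16 on the log2 scale, a difference that was itself tested (limma, SE 1.52, adjusted p = 0.0246). Hoxa10 stood at 2.14 and 2.51 in 3583T3 control, at 8.86 and 6.17 with Nfib in that line, at 8.07 and 7.90 in 3151T4 control, and at 6.76 and 7.26 with Nfib there. Of the 14 tested Hox genes, Hoxa10 was the 1 that passed this test (7.14%), near the 6.82% of all tested genes that did. Without the doubted arrays the difference was 7.51. The call was lost in 7 of the 16 fits that left out 1 array (adjusted p up to 0.0957), and the lowest difference, 4.82, was found without 3583T3 Nfib replicate 1.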

How the results depend on the processing

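No named change reversed its sign under any alternative. Counts take calls in either direction, and the genes behind them could change, as given above for Hoxd9 within 3583T3. Counts of Hox genes called moved as follows, with smaller moves left out. The filter at log2 6, which tests fewer genes, gave 1 with Nfib, 2 with both vectors and 5 between lines, 3 with Nfib and 3 with both vectors within 3583T3, and 0 and 0 within 3151T4. Using only the arrays compared gave 2 with Nfib, 4 with Mycl1 and 1 for both vectors against Nfib. Array weights gave 2 with Mycl1 and 8 with both vectors, 1 with Mycl1 within 3583T3, 3, 1 and 2 with Nfib, Mycl1 and both within 3151T4, and 2 for the Nfib response that differs between lines. No filter gave 4 within 3583T3 and 3 within 3151T4 with both vectors, where a second quantile normalization and no trend gave 2 each in 3151T4. Without both doubted arrays, the counts with Nfib, Mycl1 and both vectors were 3, 2 and 8 over both lines, 4, 7 and 12 within 3583T3, 5, 2 and 3 within 3151T4, and 2, 2 and 8 for the responses that differ between lines, and 10 genes differed between lines. Apart from the fits without the doubted arrays, no shares of all genes are given beside these counts, so they show only how far the calls moved. The cause was not tested.

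Leaving out 1 array at a time gave 1 to 5 with Nfib, 0 to 0 with Mycl1, 1 to 7 with both vectors, 0 to 0 for both against Mycl1, 0 to 1 for both against Nfib and 8 to 11 between lines. Within 3583T3 it gave 1 to 9, 0 to 2 and 0 to 11 with Nfib, Mycl1 and both, within 3151T4 0 to 1, 0 to 0 and 0 to 2, and for the differing responses 0 to 4, 0 to 1 and 0 to 3.

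The replicate numbers showed no steady pairing of the arrays: of 12 pairs of groups, 3 had deviations that correlated over 0.1 (range -0.74 to 0.31). The lowest value was that of Nfib and Nfib+Mycl1 in 3583T3, the groups that hold the doubted arrays. In 3151T4 the values ran from -0.10 to 0.31. Over both lines 8 of 16 arrays lay closest to their own number. With the replicate number as a block the counts were 2 with Nfib, 0 with Mycl1 and 5 with both vectors, and 5 and 4 with Nfib and with both within 3583T3. Signal limits the rest: 17 of the 31 Hox genes did not pass the filter on low values, so changes among them were not tested.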
